A study of Mus musculus with 12 samples.

Results

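The Egr zinc fingers and Nab corepressors are 4 transcription factor genes (Egr1, Egr2, Egr3 and Egr4) and 2 corepressor genes (Nab1 and Nab2). Proteins of the Nab genes hold EGR1, EGR2 and EGR3 in check. The members were taken by name: every row of the deposited expression tables whose gene entry named any of the 6 genes was used. All 6 genes were found in each of the 3 tables, among 39430 named genes that the tables share. They took up 6 rows in the 2 h table, 7 in that of 24 h, where Egr4 has a second row, and 6 in that of 7 d. The measure was the FPKM, a count of sequenced fragments scaled to transcript length and to the library's mapped fragments, so that levels of different genes can be set beside each other per length.

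The EGR proteins bind GC-rich DNA through C2H2 zinc fingers. Their genes belong to the immediate-early genes, which are transcribed within minutes of synaptic activity or growth factor signaling without need for new protein, mainly through serum response factor (SRF) and its ERK-activated partners. EGR1 (Zif268, Krox24) is linked to lasting synaptic potentiation and memory, EGR2 (Krox20) to hindbrain patterning and peripheral myelin, and EGR3 and EGR4 to activity responses in neurons. NAB1 and NAB2 bind the R1 domain of EGR1, EGR2 and EGR3 and repress their transcriptional activity, in part through the chromatin remodeler CHD4. Nab2 is itself an EGR target and so part of a feedback loop, whereas Nab1 is described as more steadily expressed. In cortex, Egr1 and Egr3 are known for sizeable levels in resting neurons.

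The tissue was prefrontal cortex from male C57BL/6 mice of 10 weeks, which had been injected intraperitoneally on 14 consecutive days with saline or with cocaine at 20 mg/kg per day. Mice were killed at withdrawal times of 2 h, 24 h or 7 d. Each of the 6 groups (saline and cocaine at each time) had 2 libraries, and a library was made from the cortices of 5 animals, 60 mice in all. In such bulk tissue, fewer cells of a type and less RNA per cell cannot be told apart. The question asked of these genes was how far they stood above or below saline at early, intermediate and late withdrawal.

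The deposited tables hold 1 FPKM per group, the authors' value pooled over both libraries, so no spread between replicates and no test can be given for any value here, and the tables give no read depth behind a value. In place of an error, each ratio of cocaine to saline was set beside the ratios of all named genes in the same table that reached 1 FPKM in the higher group (13588 at 2 h, 13798 at 24 h and 13681 at 7 d). The median log2 ratio of these genes was 0.02, 0.01 and -0.01 in the order of the times, and the range from the 5% to the 95% point was -0.35 to 0.40, -0.29 to 0.30 and -0.40 to 0.34. A ratio of 1.5-fold or more was used as the mark of a large difference, and no probability attaches to it. The tables name the groups only as C_2H and 2H (likewise for the later times); in the sample descriptions C stands for cocaine and CC for control, by which C_2H would be cocaine and every ratio would turn around. The first was nonetheless read as saline because the study's supplementary table of 24 h heads closely similar values so. The same order was taken for 2 h and 7 d, and every direction below rests on that reading. Neuron markers were present in each group (Snap25, Slc17a7, Rbfox3 and Gad1 summed to between 2070 and 2206 FPKM), as the labelled tissue requires, and none of the 4 differed by 1.5-fold. Ttr, a choroid plexus gene, was lower in cocaine at 2 h and 24 h (log2 ratio -2.04 and -0.71) and higher at 7 d (4.53); it was the 1 of 3 choroid plexus markers to reach 1 FPKM, and their sum lay between 1.32 and 7.37 FPKM. The part of choroid plexus in the values below was not tested.

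Promoter windows, taken from RefSeq on build GRCm38.p6, were matched for 4 of the 6 genes (Egr2, Egr4, Nab1 and Nab2). The 250 bases before a transcription start are printed for 3 of them. Egr2 was taken because its ratio with no FPKM added was the largest, and Nab1 and Nab2 because these paralogs had unlike ratios at 2 h. For each gene, the most upstream start that matched a GENCODE vM1 coding transcript of the gene was used. Capitals mark matches, on either strand, to a CArG box (the site of SRF) or to the EGR site GCGNGGGCG. The stretches are chr10:67537619-67537868 on the plus strand for Egr2, chr1:52500449-52500698 on the minus strand for Nab1 and chr10:127666704-127666953 on the minus strand for Nab2, each written 5′ to 3′.
Egr2: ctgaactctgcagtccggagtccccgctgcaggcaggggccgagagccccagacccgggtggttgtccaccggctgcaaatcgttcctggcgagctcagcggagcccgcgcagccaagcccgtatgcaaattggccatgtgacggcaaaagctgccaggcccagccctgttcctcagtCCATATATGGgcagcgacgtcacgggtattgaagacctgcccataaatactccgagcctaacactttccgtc
Nab1: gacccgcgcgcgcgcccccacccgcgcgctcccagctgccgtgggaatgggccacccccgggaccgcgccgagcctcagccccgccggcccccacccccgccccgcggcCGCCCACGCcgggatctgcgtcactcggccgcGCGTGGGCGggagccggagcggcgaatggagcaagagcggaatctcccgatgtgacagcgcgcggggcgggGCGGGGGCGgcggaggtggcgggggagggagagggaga
Nab2: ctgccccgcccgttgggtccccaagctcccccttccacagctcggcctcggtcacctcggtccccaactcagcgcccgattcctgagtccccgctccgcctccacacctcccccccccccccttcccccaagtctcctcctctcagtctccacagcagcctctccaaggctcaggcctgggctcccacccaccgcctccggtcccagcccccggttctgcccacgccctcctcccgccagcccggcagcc

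The Egr2 stretch held 1 CArG box, 72 to 63 bases before the start, and a CArG box was present in 4 of the 5 windows that RefSeq start sites of Egr2 gave. These windows overlap in part, and the 4 hold only 2 distinct boxes by position. The window without a box, 67535249 to 67535548, covers the first base of the Egr2 row, whereas the printed stretch lies inside that row. Among all 32851 windows of the same length, those of chromosome 18 left out, 1.47% held a CArG box. The Nab1 stretch held 3 EGR sites, at 141, 109 and 38 bases before the start, and 4.7% of all windows held at least 1. The Nab2 and Egr4 stretches held neither. The full cAMP response element TGACGTCA, the AP-1 site TGANTCA and the TATA box TATAAA, searched on both strands, were absent from the stretches of all 4 genes (1.55%, 6.75% and 12.4% of all windows held them). A match is a description of letters, and a missing match says nothing about a factor's binding.

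At 2 h, 4 of the 6 genes were at least 1.5-fold higher in cocaine (Egr1, Egr2, Egr4 and Nab2), where 2.79% of all genes were, and none was 1.5-fold lower. At 24 h the genes past this mark were Egr1 and Egr2 (2 of 6, against 2.06% of all genes). At 7 d they were again Egr1 and Egr2 (against 1.94%), but Egr2 was then below the minimum of 1 FPKM in both groups, which left 1 of the 5 genes that reached it. In the order of the times, the 6 genes had median log2 ratios of 1.10, 0.42 and 0.24. The 7 d median includes Egr2. Among the 5 genes that reached 1 FPKM at 7 d, the middle log2 ratio was that of Nab1, 0.08.

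**Figure D1:**
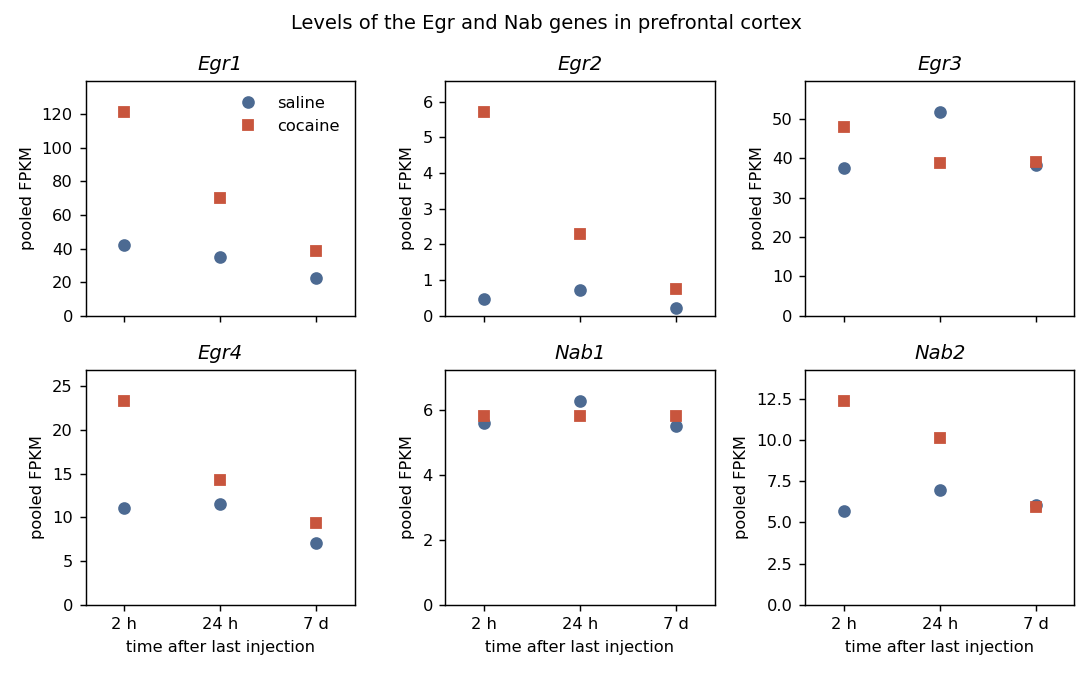
Pooled FPKM (y axes, linear from 0) of the 6 genes against time after the last injection, with 1 circle per saline group and 1 square per cocaine group; each point pools 2 libraries and no error is available. Egr1, Egr2 and Egr4 were higher in cocaine at every time, from 121 against 41.9 FPKM for Egr1 at 2 h to 0.750 against 0.206 for Egr2 at 7 d, while Nab1 stayed between 5.49 and 6.27 FPKM in all groups.

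**Figure D2:**
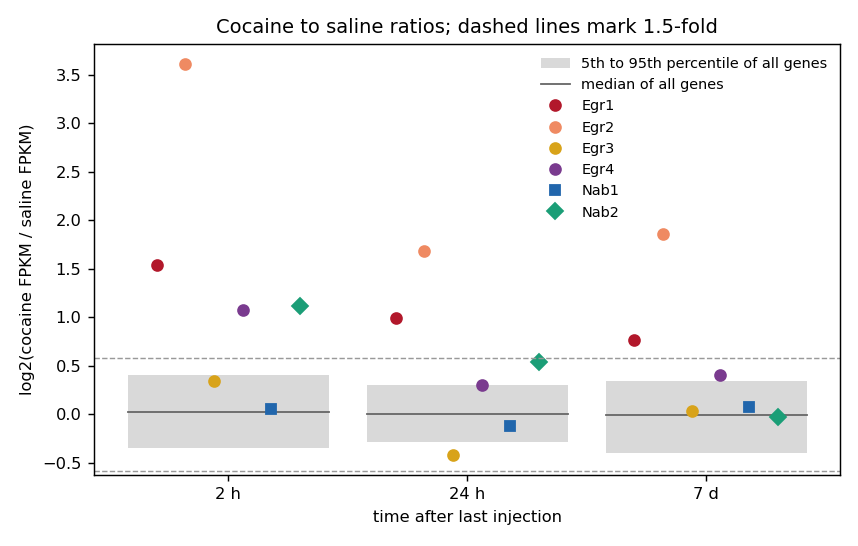
Log2 ratio of cocaine to saline FPKM (y axis) at each time, 1 symbol per gene, with a grey box from the 5% to the 95% point of all genes, a grey line at their median and dashed lines at 1.5-fold. Egr2 was farthest out at each time (3.62, 1.68 and 1.86, with no FPKM added), and Nab1 was inside the grey box at each time.

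Egr2, the factor known for hindbrain and Schwann cell development, had the lowest level of the family and, with no FPKM added, the largest ratio at each time. Its row spans 67535475 to 67542188 of chromosome 10 (GRCm38). At 2 h Egr2 stood at 0.466 FPKM in saline and 5.72 in cocaine, a 12.3-fold difference, and only 4 of 13460 genes ranked above it. At 24 h the values were 0.716 and 2.30 FPKM (3.21-fold, rank 51 of 13653 genes). At 7 d they were 0.206 and 0.750 FPKM (3.64-fold), a ratio between levels that are both under 1 FPKM. Low levels carry wider ratios: at 2 h, 3.99% of genes with a mean between 1 and 5 FPKM were 1.5-fold higher, against 1.47% of genes at 20 FPKM or more. With 1 FPKM added to both groups the successive log2 ratios of Egr2 were 2.2, 0.94 and 0.54 in place of 3.62, 1.68 and 1.86, the last of them under the mark. On that scale Egr1 had the larger ratio at 24 h and 7 d (0.98 and 0.74). Of the 6 genes, Egr2 was the 1 whose lowest cocaine value (0.750 FPKM at 7 d) lay above its highest saline value (0.716 at 24 h). The same held for 3.4% of 12938 genes that reached 1 FPKM in the higher group of every table. Egr2 is not among those genes because of its 7 d levels. All these levels come from tables that were scaled separately.

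Egr1 is the family member most used as a marker of neuronal activity. Its row lies on chromosome 18, from 34859823 to 34864984. Saline and cocaine stood at 41.9 and 121 FPKM at 2 h, a 2.90-fold difference that ranked 35 of 13460 genes. They stood at 35.1 and 70.0 FPKM at 24 h (1.99-fold, rank 111 of 13653) and at 22.6 and 38.4 FPKM at 7 d (1.70-fold, rank 118 of 13514). Cocaine was thus the higher group each time, as for 19% of all genes. Egr1 was 1 of 8 genes, or 0.0618% of those counted in every table, that were at least 1.5-fold higher in cocaine at all 3 times; among the others were Arc, Fos, Nr4a1 and Dusp5. The saline level of Egr1 itself was not constant. It was 1.85 times as high at 2 h as at 7 d, a gap larger than the 7 d ratio, and the 7 d cocaine level of 38.4 FPKM lay below the 2 h saline level. A gap of 1.5-fold or more between saline groups was seen in 6.72% of genes. It also held for Egr2 (3.47-fold, between levels under 1 FPKM) and Egr4 (1.63-fold). Reep2, upstream of Egr1 and listed between 51.7 and 55.8 FPKM, had log2 ratios from -0.07 to 0.11.

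Egr4 (NGFI-C), a neuronal member of the family that lacks the R1 domain, occupies 85511131 to 85513589 of chromosome 6. At 2 h it stood at 11.1 FPKM in saline and 23.3 in cocaine, a 2.11-fold difference that ranked 85 of 13460 genes. At the later times cocaine was still the higher group but under the mark: 11.6 against 14.2 FPKM at 24 h (1.23-fold) and 7.09 against 9.41 at 7 d (1.33-fold). Both ratios lay near the upper edge of the table, with 5.18% and 3.16% of genes higher. A second row named Egr4 in the 24 h table, downstream of the gene at 85508707 to 85510688, had a saline level of 0.674 FPKM and a cocaine level of 0.940. When both rows were joined by length, the log2 ratio at 24 h was 0.31 in place of 0.30.

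Egr3, known for roles in muscle spindle development and cortical plasticity, was near Egr1 in saline at 2 h, above it in saline at 24 h and 7 d, and did not share its ratios. Its row spans 70076792 to 70082614 of chromosome 14 at 2 h and 24 h. Saline and cocaine stood at 37.6 and 47.9 FPKM at 2 h (1.27-fold), inside the range of most genes, since 6.57% had a higher ratio. At 24 h the order of the groups was the other way around, with 51.9 FPKM in saline and 38.8 in cocaine (log2 ratio -0.42), and 2.46% of genes had a lower ratio. At 7 d the groups were at 38.3 and 39.1 FPKM (log2 ratio 0.03). The 24 h saline group was the highest of the 6 values, and the other 5 lay between 37.6 and 47.9 FPKM. No ratio of Egr3 reached 1.5-fold.

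Nab2, the inducible corepressor, had nearly the same ratio at 2 h as Egr4. It stood at 5.72 FPKM in saline and 12.4 in cocaine (2.17-fold, rank 75 of 13460 genes). At 24 h the values were 6.98 and 10.1 FPKM (1.45-fold, just under the mark), with 1.90% of genes higher. At 7 d saline and cocaine were at 6.06 and 5.94 FPKM (log2 ratio -0.03). Nab2 was thus high in the 2 h and 24 h cocaine groups, and its other 4 values lay between 5.72 and 6.98 FPKM.

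Nab1, its paralog on chromosome 1, is listed from 52457294 to 52500679 at 2 h and 24 h and differed little between any groups. The saline levels were 5.59, 6.27 and 5.49 FPKM in the order of the times and the cocaine levels 5.80, 5.79 and 5.81 FPKM, so that the log2 ratio stayed between -0.12 and 0.08. The ratio of Nab2 to Nab1 levels was 1.02, 1.11 and 1.10 in the successive saline groups and 2.14, 1.75 and 1.02 in the cocaine groups.

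The Nab2 row covers a wide locus of chromosome 10, from 127642986 to 127701049, which the tables also give for the genes Stat6, Gm16229, Gm16230 and Tmem194. Gm16229 is a noncoding transcript that the GENCODE vM1 annotation places within Nab2 on the opposite strand. Its successive saline levels were 4.0, 5.58 and 4.49 FPKM, its cocaine levels were 8.56, 7.32 and 4.76 FPKM, and its log2 ratios (1.10, 0.39 and 0.08) were the nearest to those of Nab2 among 12938 genes. The library kit did not mark strand, so reads of Nab2 and Gm16229 cannot be told apart where they overlap. Stat6, which overlaps Nab2 at its end and encodes a cytokine-activated factor, had log2 ratios of -0.07, -0.11 and -0.14. Tmem194, which the same annotation also has overlapping Nab2, had 0.34, -0.87 and -0.57 at levels of at most 1.35 FPKM.

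**Figure D3:**
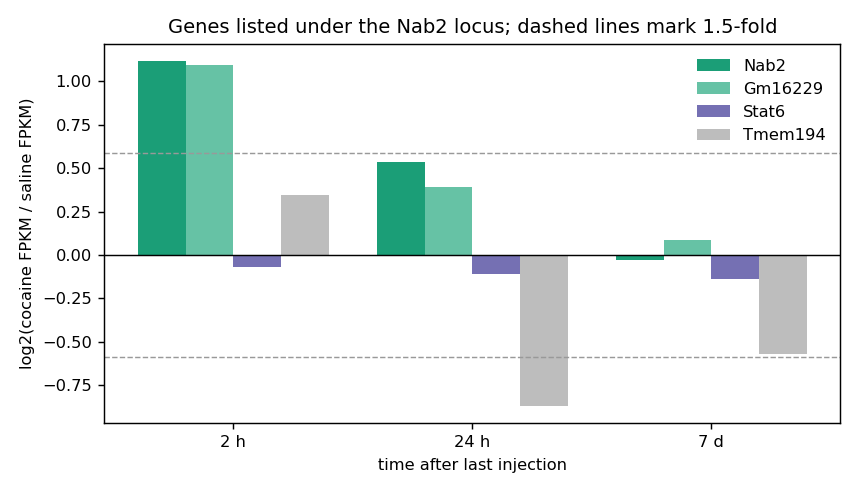
Log2 ratio of cocaine to saline FPKM (bars, from 0) at each time for Nab2 and 3 genes that the tables list at the same locus, with dashed lines at 1.5-fold. The bars of Nab2 and the antisense transcript Gm16229 were of like height at 2 h (1.12 and 1.10), while Stat6 was between -0.14 and -0.07 throughout.

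Summed per length, the 4 Egr genes amounted to 91.0, 99.3 and 68.2 FPKM in the successive saline groups and to 198, 125 and 87.7 FPKM in the cocaine groups, or 2.18-fold, 1.26-fold and 1.29-fold as much. Egr1 supplied 74.1% of the difference at 2 h and 80.9% at 7 d; at 24 h the difference of Egr1 exceeded that of the sum, because Egr3 was lower in cocaine. The make-up of the family differed with it. Egr1 was 46.0%, 35.4% and 33.2% of the sum in the successive saline groups, and 61.2%, 55.9% and 43.8% in the cocaine groups. Egr3 was 41.3%, 52.2% and 56.1% in saline, and 24.1%, 30.9% and 44.6% in cocaine. Egr4 kept between 10.4% and 12.1% in all 6 groups, and Egr2 did not exceed 2.88%. From highest to lowest the order was Egr1, Egr3, Egr4, Nab2, Nab1 and Egr2 in both groups at 2 h and in cocaine at 24 h; in the other 3 groups Egr3 stood above Egr1, though at 7 d in cocaine by 39.1 against 38.4 FPKM. Without replicate values it cannot be said which neighbours in this order differ beyond their spread. The summed Egr level was 8.05, 7.49 and 5.90 times the summed Nab level in the successive saline groups and 10.9, 7.87 and 7.46 times in the cocaine groups. This sum includes Egr4, which lacks the R1 domain that NAB proteins bind.

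**Figure D4:**
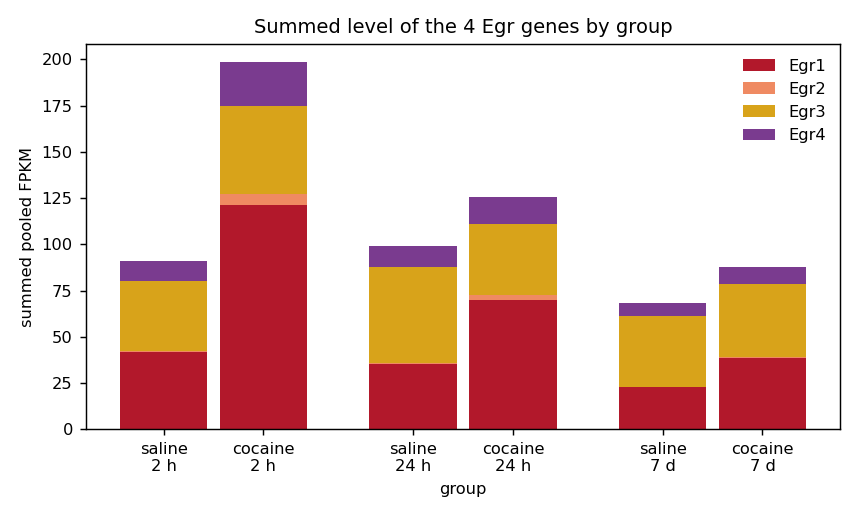
Summed pooled FPKM of the 4 Egr genes (y axis, from 0), stacked by gene, for the saline and the cocaine group at each time. The stack was highest in cocaine at 2 h (198 FPKM), where Egr1 made up 61.2%, and lowest in saline at 7 d (68.2 FPKM), where Egr3 made up 56.1%.

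Between time points, the log2 ratio was larger at 2 h than at 24 h for all 6 genes, by 1.93 for Egr2, 0.78 for Egr4, 0.77 for Egr3, 0.58 for Nab2, 0.54 for Egr1 and 0.17 for Nab1. Gaps as large in that direction were found for 0.139% of genes in the case of Egr2, for 1.31% to 3.20% in the case of Egr1, Egr3, Egr4 and Nab2, and for 22.5% in that of Nab1. From 24 h to 7 d the ratio of Nab2 was lower by 0.57 (2.56% of genes had as large a gap), and that of Egr1 by 0.23 (17.6% of genes). Egr2 and Egr4 had ratios at 7 d that were slightly above those at 24 h, by 0.18 and 0.11. The ratios of Egr3 and Nab1 were also above those at 24 h, by 0.45 (4.15% of genes had as large a gap) and 0.20. These differences were not tested, since each rests on 4 pooled values from separately scaled tables.

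The saline groups took part in this pattern. For 5 of the 6 genes (all but Egr1) the saline level was highest at 24 h, against 37.6% of all genes; of 16 other fast-induced genes counted in every table, 14 did the same. So did 4 of 4 astrocyte, 3 of 4 neuron, 3 of 4 oligodendrocyte and 3 of 3 endothelium markers, and 2 of 4 microglia markers. Arc stood at 23.2 FPKM in saline at 24 h against 5.59 at 2 h and 6.47 at 7 d, and Fos at 3.95 against 2.02 and 1.59. The tables were scaled separately, so these levels are set side by side without a test.

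For the 4 members past 1.5-fold at some time, the genes most like them in their 3 log2 ratios were sought. Likeness was the Euclidean distance over the 3 times, among 12938 genes with at least 1 FPKM in each table. Nearest to Egr1 were Dusp5 (a phosphatase of nuclear ERK, distance 0.368), Trib1 (0.389) and Gm15432 (0.403). Nearest to Egr2 were Arc (a cytoskeletal synaptic protein, 0.512), Fos (0.970) and Gm13392 (1.67); Egr2 was itself under the minimum at 7 d. Nearest to Egr4 were Btg2 (an antiproliferative immediate-early gene, 0.118), Mycn (0.141) and Kdm6b (a histone demethylase, 0.180). Nearest to Nab2, after Gm16229 (0.186), were Plk3 (0.212) and Ier5l (0.260). The distances describe 3 pooled ratios each and carry no statement on shared control.

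Other genes of the pathway were taken from 4 lists of upstream factors, partners, described EGR targets and other fast-induced genes. None of the 16 upstream factors (SRF, its partners, ERK pathway kinases and CREB) reached 1.5-fold at any time, and their median log2 ratio was 0.13, 0.04 and 0.10 at the successive times, beside 0.02, 0.01 and -0.01 for all genes. With 2.79%, 2.06% and 1.94% of all genes 1.5-fold higher at these times, a count of 0 in a list of this size is no result about the list. The largest ratio at 2 h was that of Srf itself, with 9.92 FPKM for saline and 13.8 FPKM for cocaine (log2 ratio 0.48). None of the 12 counted partners and competitors, which include Chd4, Hdac1, Hdac2, Ep300 and Sp1, reached the mark either, with medians of 0.09, -0.02 and 0.08. Wt1, which binds similar DNA sites, did not reach 1 FPKM.

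Of the described EGR targets in a list of 20, there were 14 that reached 1 FPKM, and 1, Arc, was past 1.5-fold at each time. Its successive saline levels were 5.59, 23.2 and 6.47 FPKM, and its cocaine levels 77.8, 54.1 and 21.6 FPKM. Arc is also counted among the other fast-induced genes below. With 2.79%, 2.06% and 1.94% of all genes 1.5-fold higher at the successive times, a count of 1 is no result about the list. The median of the targets was 0.09, 0.02 and 0.03. Cdk5r1, which encodes the CDK5 activator p35, had log2 ratios of 0.28, 0.14 and 0.05. Syn1, a synapsin of synaptic vesicles, was at 227 FPKM in saline and at 226 in cocaine at 2 h and had log2 ratios of 0.16 and 0.03 thereafter. Gabra4, a GABA-A receptor subunit gene, had -0.06, -0.03 and -0.06. Among the targets under the mark, Psmb9, an immunoproteasome subunit gene, had log2 ratios of 0.56, -0.13 and -0.50. Id3 and Tgfb1 had 0.43 and 0.41 at 2 h. At the lower threshold of 0.32 on the log2 scale, 4 targets were past it at 2 h. Of all 13588 genes, 1086 were then past it higher in cocaine and 822 lower. The other 6 listed targets, among them the hindbrain genes Hoxa2 and Hoxb2, stayed under 1 FPKM.

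Of the 16 other fast-induced genes that reached 1 FPKM, 15 were past 1.5-fold higher in cocaine at 2 h, all but Jun (log2 ratio -0.02), against 2.79% of all genes. At 24 h 7 were higher (against 2.06%) and 1, Nr4a2, was lower, with 2.56 FPKM for saline and 1.49 FPKM for cocaine. At 7 d 4 were higher (against 1.94%), namely Arc, Fos, Nr4a1 and Dusp1. Their median log2 ratio was 1.26, 0.52 and 0.47, beside 1.10, 0.42 and 0.24 for the Egr and Nab genes. The value of 0.24 includes Egr2, which was under 1 FPKM at 7 d, whereas fast-induced genes under that minimum were left out. The fast-induced list was chosen with earlier results of these data known, so its counts are not independent of them. Among the marker lists, the 4 astrocyte and 4 oligodendrocyte genes were all lower in cocaine at 24 h, with medians of -0.21 and -0.23, and none of them reached 1.5-fold. The 4 microglia genes were also all lower then (median -0.13), and the summed levels of the 3 lists were 292, 660 and 78.8 FPKM in saline and 263, 544 and 73.2 FPKM in cocaine. The 3 endothelial genes had a median of -0.04 at 24 h. At 2 h all 4 astrocyte and 3 endothelial genes were higher in cocaine (medians 0.10 and 0.13) and all 4 oligodendrocyte genes lower (-0.10). At 7 d the astrocyte and endothelial genes were again all higher (0.14 and 0.20). Of the 4 neuron genes, 3 were higher at each time. Among all genes, 56.4%, 53.1% and 47.8% were higher in cocaine at the successive times. Of the striatal neuron markers, Drd1 and Drd2 stayed under 1 FPKM, Ppp1r1b lay between 46.4 and 57.7 FPKM, and Adora2a was past the mark at 7 d, with 0.805 FPKM for saline and 1.35 FPKM for cocaine. The part of such cells in the ratios of the Egr and Nab genes was not tested.

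**Figure D5:**
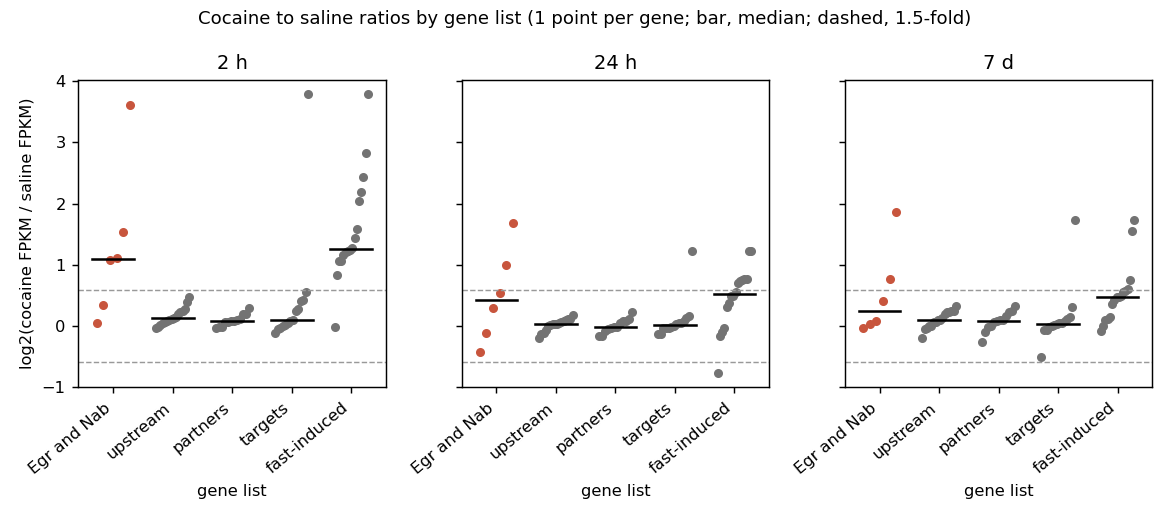
Log2 ratio of cocaine to saline FPKM (y axis), 1 point per gene with a bar at the median, for the 6 Egr and Nab genes and the 4 pathway lists, by time after the last injection; dashed lines mark 1.5-fold. At 2 h the Egr and Nab genes (median 1.10) and the other fast-induced genes (1.26) stood above the upstream factors (0.13), partners (0.09) and targets (0.09), and the single high target is Arc. The lists were chosen with earlier results of these data known.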

How the data were processed

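Polyadenylated RNA of 12 prefrontal cortex libraries in 6 groups was sequenced as read pairs. The labels describe 6 libraries in their protocol but list 12. Per the submitters' processing notes, the authors used Trimmomatic 0.32, TopHat2 2.0.12 and Cufflinks 2.2.1 with Cuffdiff on GRCm38; the methods instead name cutadapt, an earlier Cufflinks and mm9. The first value of each row was read as saline from the headings of the study's supplementary tables, against the sample descriptions, where C is cocaine. Row positions overlapped the GRCm38 gene of the same name for 99.8% to 99.9% of genes, against 15.7% to 15.9% on NCBIM37, so positions are given on GRCm38. The authors deposited 1 FPKM per group and time, pooled over 2 libraries. The tables also hold the authors' fold changes, test statistics, p and q values, which were not used. Cufflinks values are estimates and the tables give no depth; recovery of whole reads was not attempted.

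The log2 ratio of cocaine to saline FPKM was computed without a pseudocount, in Python 3.11.15 with pandas 2.3.3 and numpy 2.4.6 (figures, matplotlib 3.10.9), and the steps were tested on simulated data. Genes needed 1 FPKM in the higher group to be counted. Genes at 0 in 1 group (128, 145 and 167) counted toward the threshold but not toward medians or ranks. A name on several rows took the row naming it alone, then the longest. Named were the 6 members, the 3 genes nearest in ratio to each member past 1.5-fold, list genes past 1.5-fold, and, after their values were seen, genes at the Nab2 locus, genes 1.5-fold higher at all times, Reep2, Ttr and the other list genes given. Members and lists were chosen with earlier results of these data known. Alternatives were other pseudocounts, scalings, FPKM minima and thresholds.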

Additional observations from a re-analysis of the deposited data

Results flagged for a closer look

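Egr3, Nab1 and Nab2 were picked out because their pooled cocaine value lay above saline at some times and below it at others. With 1 value per group the differences were not tested. Cocaine lay above saline at 2 h, 24 h and 7 d alike for 19% of 12938 genes. The share of all genes with mixed directions was not counted, so the rule does not mark these genes as unusual. The log2 ratio of Egr3 was 0.35, -0.42 and 0.032 in the order of the times (2 h, 24 h and 7 d). That of Nab1 was 0.051, -0.12 and 0.082, all within the range of most genes. That of Nab2 was 1.12, 0.54 and -0.030. Nab2 met the rule only through its value at 7 d, which lay within the range of most genes. That value became 0.016 when the upper quartile of both groups was made equal.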

How the results depend on the processing

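The values are pooled by the authors, so leaving out each replicate was not run, and depth limits cannot be stated. No paired analysis was possible because the tables hold 1 pooled value per group. Of 73 member ratios under other pseudocounts, scalings or rows, 72, the joined Egr4 rows (chosen after seeing the data) included, kept their side of the 1.5-fold mark; the exception was Egr2 at 7 d, whose log2 ratio was 0.54 with a pseudocount of 1 in place of 1.86. No ratio past the mark changed direction. The counts of all genes past the mark, given as higher and lower in cocaine for 2 h, 24 h and 7 d in turn, were 379 and 289, 284 and 267, 265 and 355. With any FPKM above 0 in both groups they were 1543 and 1826, 1567 and 1718, 1616 and 1816. With a minimum of 5 FPKM they were 185 and 104, 147 and 109, 102 and 180. At a 2-fold threshold they were 176 and 125, 169 and 147, 167 and 198. At a lower threshold (log2 ratio 0.32) they were 1086 and 822, 673 and 620, 857 and 1193. With a pseudocount of 1 they were 224 and 147, 193 and 155, 170 and 233. Without loci under 300 bases, an alternative chosen after seeing the data, 186 genes were higher at 24 h. Of the 4 pathway lists together, 8 genes were past the mark at 24 h and 4 at 7 d, against 5 at 24 h with a pseudocount of 1 and 14 at 7 d at the lower threshold. The other minima and thresholds changed which genes or folds were let through, whereas the pseudocount of 1 changed the ratios themselves. Centring on the median of all genes moved no count by over 1.5 times.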
